A study of Mus musculus with 6 samples.

Results

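The nuclear-encoded genes of oxidative phosphorylation were followed in the bulk RNA-Seq of mouse livers after an overdose of acetaminophen (APAP). Members were defined by symbol and a minimum count, and the set was chosen with earlier results of these data known. They were the genes whose name starts with Nduf (complex I), the genes Sdha, Sdhb, Sdhc and Sdhd (complex II), and the genes whose name starts with Uqcr (complex III), with Cox4 to Cox8 (complex IV) or with Atp5 (complex V). Of 96 names that matched, 4 were names of pseudogenes and were left out. Another 3 (Cox4i2, Cox7b2 and Cox8c) had 0 counts in all 5 libraries. That left 89 of the 34745 genes listed, namely 45 of complex I, 4 of complex II, 8 of complex III, 15 of complex IV and 17 of complex V, and all 89 passed the filter on low counts. The name rule also takes in 7 assembly factors of complex I, Ndufa4, whose protein is counted with complex IV, its paralog Ndufa4l2, the supercomplex factor Cox7a2l, and the genes Atp5s and Atp5sl, whose products are not counted among the subunits of ATP synthase. Symbols are those of the count table, which uses older names such as Atp5a1 for the α subunit of ATP synthase.

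All mice were WT C57BL/6J mice aged 8 to 10 weeks that were fasted for 12 hours before injection. The methods name males. The APAP group received 300 mg/kg of APAP by i.p. injection and was sampled 12 hours later, and the control group received saline. Each group had 3 livers. The comparison rests on 2 APAP libraries (replicates 1 and 3) and 3 control libraries, whose columns carry the names WT1, WT2 and WT3 and were taken for the saline group. APAP replicate 2 was not analysed here. No source says more of how the livers of a group relate, so the p-values measure only the spread between these libraries.

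Between 13378445 and 15976339 reads per library were assigned to genes. Values are given in CPM, the count of a gene relative to the size of its library, which was corrected for composition by edgeR's TMM method. A detection floor of 3 counts was equal to 0.176 to 0.269 CPM, a limit that covers counting error only. In several respects the libraries stood apart from their labels. The summed level of 8 skeletal muscle markers was 0.823 and 467 CPM in APAP replicates 1 and 3 against 0.269, 731 and 1378 CPM in WT1, WT2 and WT3, the order used for all values given per library, with Myh6 at 0 in every library. The X-inactivation transcript Xist was at 0.764 and 1.73 CPM with APAP against 289.6, 914 and 882 CPM with saline. The 4 Y-linked genes listed were detected in both APAP libraries but had at most 1 count in any saline library. By these genes the saline libraries read as female and the APAP libraries as male, although the methods name males. Sex and treatment therefore cannot be told apart for any member. The summed level of 11 neutrophil markers was 122 and 78.6 CPM with APAP against 4.30, 4.85 and 8.82 CPM with saline, and 7 of the 8 that were tested passed edgeR's test as higher. Camp and Ly6g had 0 counts in all saline libraries. The summed level of 10 hepatocyte markers was 87810 and 135660 CPM with APAP against 182799, 136926 and 167852 CPM with saline, most of it from Alb. Their median log2 fold change was -0.52 with 8 of 10 below 0 (-0.14 with 5 below 0 with library size only), and Apoa1 (0.57) and Fgb (0.77) were above 0. Fewer hepatocytes and less RNA per hepatocyte cannot be told apart in bulk liver. The part of each of these differences in the results on the respiratory chain was not tested, except where values without the muscle-containing libraries are given.

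Oxidative phosphorylation takes place in the inner membrane of mitochondria. Complexes I (NADH dehydrogenase) and II (succinate dehydrogenase) pass electrons to coenzyme Q, complex III passes them on to cytochrome c, and complex IV (cytochrome c oxidase) reduces oxygen, while I, III and IV pump protons that drive ATP synthesis by complex V. Complex II is encoded wholly in the nucleus, whereas the other complexes also contain subunits encoded by mitochondrial DNA. Hepatocytes are rich in mitochondria, and mitochondrial damage by the reactive metabolite of APAP is a textbook feature of this liver injury.

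The members were lower as a group in the APAP-overdosed livers. The log2 fold change was below 0 in 82 of 89 members (92.1%), against 48% of the 13734 genes tested. The median log2 fold change of the members was -0.54 (quartiles -0.73 and -0.32), a median of 68.8% of the saline mean, while the median of all genes tested was 0.03 (quartiles -0.41 and 0.46). Only 1 member, Atp5sl, had an adjusted p under 0.05 in edgeR's quasi-likelihood test and was lower, where 3.53% of all genes passed as lower, and 0 members passed as higher, where the share was 3.7% (7.23% in either direction). An unadjusted p under 0.05 in either direction was seen in 35 of 89 members, and in 3413 of all 13734 genes. When a change of 1.5-fold or more was also required, 32 members were lower (36.0%, background 11.2%) and 0 were higher (background 12.3%). DESeq2 called 20 members lower at an adjusted p under 0.05 (22.5%, background 8.41%) and 0 higher (background 6.83%). In 63 members (70.8%) both APAP libraries were below every saline library, where 20.1% of all genes showed this, and in 3 members both were above, where 24% did. With library size as the only scaling, these were 32 members (36.0%, background 9.19%) and 11 members (background 43.3%). The biological coefficient of variation across all genes was 33.3%.

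**Figure D1:**
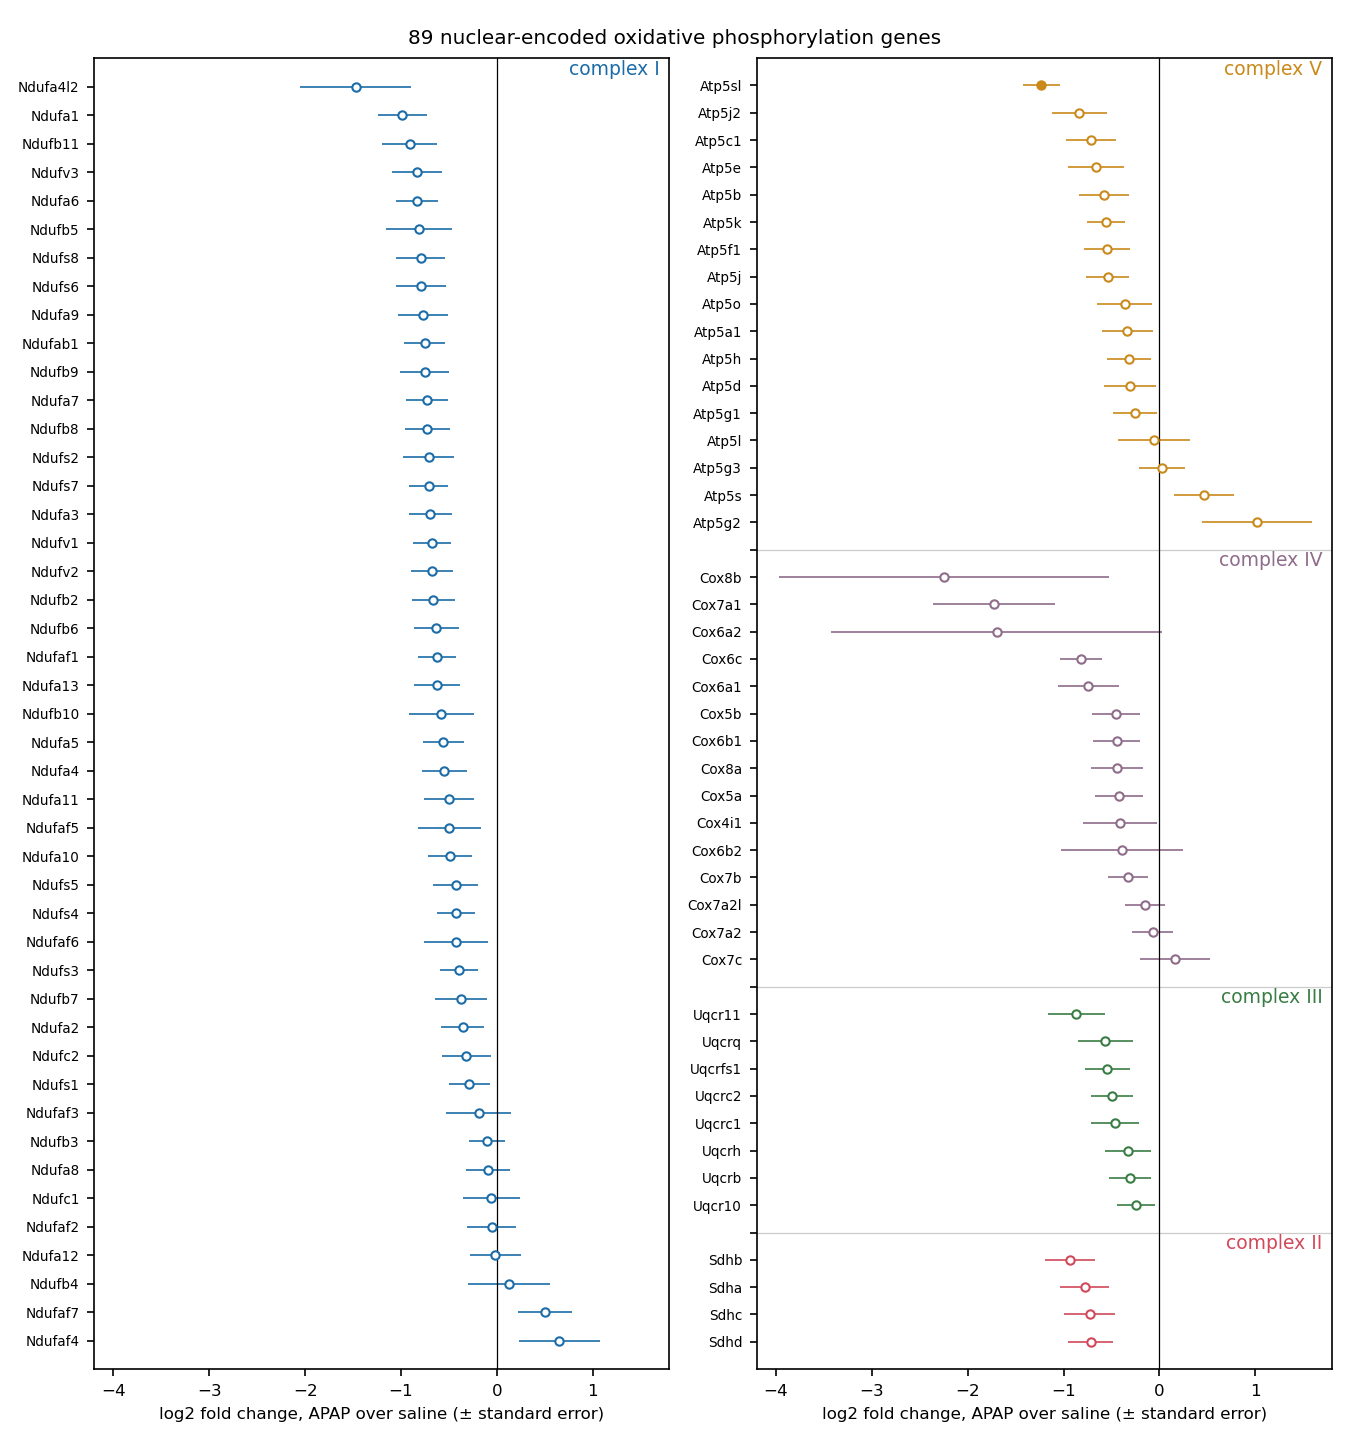
The log2 fold change of each of the 89 members is plotted on the horizontal axis (APAP over saline, TMM scaling), with its standard error as a bar, by complex. The filled point is Atp5sl, which had an adjusted p under 0.05, and 82 of the 89 points lie below 0, a number that was 55 with library size only as scaling.

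The choice of scaling moved the log2 fold changes of the members and of the other genes together. With library size as the only scaling, the median of all genes tested moved from 0.03 to 0.42 and that of the members from -0.54 to -0.13, so that 55 of 89 members were below 0 and 27 turned positive. The members' median minus that of all genes was -0.57 with TMM and -0.55 with library size only. A change of scaling shifts every gene by nearly the same amount, so this offset had to stay nearly equal. In 55 members the log2 fold change stayed below 0 in every fit, and in 72 it did so in every fit but that with library size only. The pair of single libraries without muscle RNA, described below, was not a fit and is not counted here. Of the single libraries, WT1 weighed most. The median of the members, centred on the saline mean, was -0.57 and -0.44 with APAP against 0.26, -0.07 and -0.16 with saline, and without WT1 the median log2 fold change was -0.37.

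Atp5sl (ENSMUSG00000057229, chromosome 7, 25619414 to 25625551 of GRCm38), a gene since renamed Dmac2 for a role in complex I assembly, was at 15.6 and 15.1 CPM with APAP against 33.7, 38.9 and 35.7 CPM with saline. Its groups lay far apart relative to their spread. The log2 fold change was -1.23 (SE 0.20, adjusted p = 0.018, edgeR), a mean of 42.6% of saline, and it lay between -1.27 and -1.18 when any 1 library was left out. It passed the threshold without WT1 or WT3, but not without APAP replicate 1, APAP replicate 3 or WT2, nor with library size only. The member closest to the threshold without passing was Ndufa1, which lies on chromosome X and was chosen after its value was seen. It was at 26.3 and 29.2 CPM with APAP against 70.8, 45.6 and 48.8 CPM with saline (adjusted p = 0.068, edgeR). For this gene too, sex and treatment cannot be told apart.

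The upstream sequences of 3 members are shown because these genes are described below and hold, within 250 bases before the start of transcription, matches to the motifs of both NRF1 and GABP, known regulators of respiratory chain genes. Members were matched by symbol to RefSeq promoters (GRCm38.p6), and 72 of 89 had an entry of 250 bases before to 50 bases after the start. The motif of nuclear respiratory factor 1 (NRF1; GCGCA and GCGC with 1 base of any kind between them, either strand) was found in 19 of the 72 (26.4%), in 5.19% of 27025 mouse promoters and in 10.96% of the 10146 promoters of genes tested here. The core of the ETS site to which GABP binds (CCGGAAG, either strand) was found in 17 (23.6%), in 9.93% of all promoters and in 19.0% of those of genes tested, and the motifs do not overlap in the sequences shown. A total of 4 members held both in 300 bases. Capitals mark these matches in the sequences below, given 5′ to 3′ on the strand of the gene, where CTTCCGG is the ETS motif read on the other strand. The sequence of Cox6a1 is from chr5:115348959-115349208, that of Sdhd from chr9:50603850-50604099 and that of Atp5h from chr11:115419920-115420169, all on the minus strand.
Cox6a1: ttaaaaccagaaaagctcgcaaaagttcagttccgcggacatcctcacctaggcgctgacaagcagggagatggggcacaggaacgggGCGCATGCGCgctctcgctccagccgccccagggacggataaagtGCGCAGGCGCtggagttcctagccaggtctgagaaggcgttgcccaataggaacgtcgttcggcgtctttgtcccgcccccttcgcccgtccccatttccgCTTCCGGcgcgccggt
Sdhd: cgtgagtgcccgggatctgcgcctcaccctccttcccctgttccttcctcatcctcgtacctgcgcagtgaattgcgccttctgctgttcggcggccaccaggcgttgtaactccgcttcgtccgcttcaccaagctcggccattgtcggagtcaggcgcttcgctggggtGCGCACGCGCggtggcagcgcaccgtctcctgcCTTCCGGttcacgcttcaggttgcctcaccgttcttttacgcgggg
Atp5h: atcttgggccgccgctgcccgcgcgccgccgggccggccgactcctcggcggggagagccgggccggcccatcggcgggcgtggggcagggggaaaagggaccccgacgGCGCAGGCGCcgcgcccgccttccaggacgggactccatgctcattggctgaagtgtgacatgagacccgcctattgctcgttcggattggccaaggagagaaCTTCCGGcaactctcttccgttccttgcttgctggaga
The median log2 fold change was -0.50 in members with and -0.54 in members without the NRF1 motif, and -0.56 with and -0.50 without the ETS motif. A match by letters does not show a binding site.

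The complexes are given by their medians, whose order was not tested. The median log2 fold change was -0.76 in complex II, -0.58 in complex I, -0.48 in complex III, -0.44 in complex IV and -0.36 in complex V, the last of which was 0.06 with library size only. Complex II had the lowest median under every setting tried. Complex V did not have the highest in 4 of them, which were the muscle-containing libraries (III -0.21, IV -0.25 and V -0.26), the pair without muscle RNA (IV -0.67 and V -0.68), at least 10 counts in every library (IV -0.41 and V -0.43) and without WT2 (IV -0.50, III -0.51 and V -0.51). The summed level of all members, in CPM per kilobase of exon, was 6783 and 7440 with APAP and 12312, 9407 and 8909 with saline. Both APAP sums lay below all saline sums and their mean was 69.7% of the saline mean. With library size only the mean was 92.3% and the groups overlapped, with 8629 and 8108 against 9633, 9212 and 8347.

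**Figure D2:**
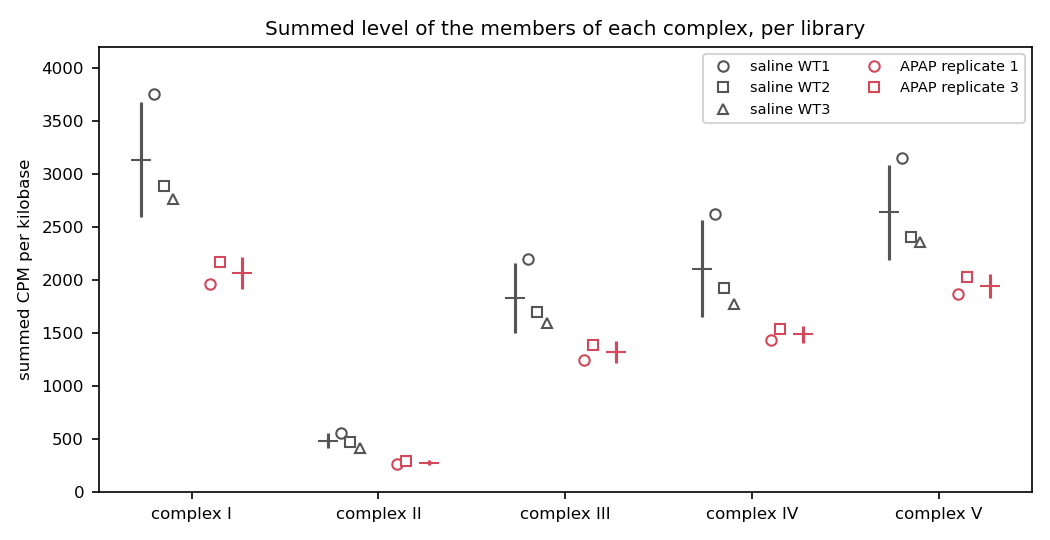
The summed CPM per kilobase of exon of the members of each complex is plotted for each library (TMM scaling), with the mean and SD of each group as crosses beside the points. Both APAP libraries lie below the 3 saline libraries in every complex; with library size only this held in complexes I and II and not in III, IV and V.

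The 4 subunits of succinate dehydrogenase, which is both complex II and an enzyme of the citric acid cycle, were all lower in both APAP libraries than in every saline library. Of all genes, 20.1% showed this. With library size only, Sdha and Sdhb did so, where 9.19% of all genes did. Sdha (ENSMUSG00000021577, chromosome 13), the flavoprotein that oxidizes succinate, was at 220.1 and 290.4 CPM with APAP against 472, 428 and 417 CPM with saline. Sdhb (chromosome 4, 140961203 to 140979193), the iron-sulfur subunit, was at 63.3 and 78.6 CPM against 164, 131 and 111 CPM. Sdhc, a membrane anchor that binds coenzyme Q, was at 94.9 and 103 CPM against 202, 163 and 127 CPM. All 3 had their lowest saline value in WT3. Sdhd, the other anchor, whose upstream sequence is shown above, was at 130.03 and 116 CPM against 234, 199 and 173 CPM. The log2 fold changes were -0.78 (SE 0.25) for Sdha, -0.93 (SE 0.26) for Sdhb, -0.73 (SE 0.26) for Sdhc and -0.72 (SE 0.24) for Sdhd. Their unadjusted p-values were 0.017, 0.0088, 0.029 and 0.020 and their adjusted p-values 0.113, 0.079, 0.149 and 0.122 in edgeR, so none passed the test. DESeq2 called 3 of the 4 lower, where it called 8.41% of all genes lower. The 4 assembly factors of complex II (Sdhaf1 to Sdhaf4) had a median log2 fold change of -0.40, with 3 below 0 and 0 called.

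In complex I, 42 of 45 members were below 0. In 31 (68.9%) both APAP libraries were below every saline library, where 20.1% of all genes showed this. With library size only these were 20 (44.4%, background 9.19%). The members are given by role, and differences between roles were not tested. All 7 nuclear-encoded core subunits, which together hold the flavin and the iron-sulfur clusters, were below 0 with a median log2 fold change of -0.68 (5 below 0 with library size only), and 6 of the 7 did not overlap (5 with library size only). Of 29 accessory subunits, which surround the core, 28 were below 0 with a median of -0.62 (21 below 0 with library size only). Of 7 assembly factors, which are not part of the finished enzyme, 5 were below 0 with a median of -0.19 that turned to 0.25 with library size only. Of the 7, 2 did not overlap as lower (28.6%, background 20.1%) and 1 did not overlap as higher (background 24%). The core subunit Ndufs8 (chromosome 19, 3908870 to 3912717), chosen after its value was seen as the lowest of the core, was at 25.3 and 30.9 CPM with APAP against 59.9, 48.0 and 38.4 CPM with saline. Ndufs1, the largest core subunit and the least shifted, was at 71.4 and 80.2 CPM against 79.5, 96.2 and 102 CPM, so that its groups overlapped. The assembly factor Ndufaf4 was the highest member of the complex, at 18.3 and 9.70 CPM against 5.29, 8.77 and 12.6 CPM. Its libraries overlapped and its log2 fold change of 0.65 (SE 0.42, adjusted p = 0.397, edgeR) became -0.13 in the fit of the muscle-containing libraries.

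The lowest log2 fold change under a Nduf name was that of Ndufa4l2, a paralog of Ndufa4 known to be induced by hypoxia. It was rare, with 10 and 9 counts with APAP against 25, 22 and 17 counts with saline, a log2 fold change of -1.47 (SE 0.58, adjusted p = 0.173, edgeR). Ndufa4 was, per kilobase with saline, the most abundant gene with a Nduf name, at 110 and 132 CPM with APAP against 202, 174 and 155 CPM with saline (log2 fold change -0.55, SE 0.23, adjusted p = 0.204). Ndufa4l2 made up 0.258% and 0.204% of the summed level per kilobase of the pair with APAP and 0.533%, 0.405% and 0.353% with saline. These percentages did not overlap, but the exact two-sided permutation test gave p = 0.2, the smallest this test can give with 2 against 3 libraries, and 1 after adjustment over the 5 isoform pairs tested.

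All 8 members of complex III were lower in both APAP libraries than in every saline library, where 20.1% of all genes were. With library size only, 2 were (25%, background 9.19%). The log2 fold changes lay between -0.87 and -0.24, and those of Uqcrh, Uqcrb and Uqcr10 turned to 0.09, 0.10 and 0.16 with library size only. Under that scaling Uqcr10 was higher in both APAP libraries than in every saline library, as were 43.3% of all genes. Uqcrq, a small subunit and the most abundant member of all per kilobase with saline, was at 132 and 176 CPM with APAP against 289, 207 and 187 CPM with saline (log2 fold change -0.57, SE 0.29, adjusted p = 0.280, edgeR). Uqcr11 had the lowest value, with 47.1 and 53.8 CPM against 119, 92.5 and 64.7 CPM (log2 fold change -0.87, SE 0.30, adjusted p = 0.130). Uqcr10 had the value nearest to 0, with 80.4 and 83.4 CPM against 105, 90.01 and 95.7 CPM (log2 fold change -0.24, SE 0.20, adjusted p = 0.507). The only catalytic subunit among the 8, the Rieske protein Uqcrfs1, was at 113 and 120 CPM against 200.2, 155 and 154 CPM. Cyc1, the cytochrome c1 of the same complex, lies outside the name rule and was at 93.7 and 107 CPM against 165, 129 and 131 CPM (log2 fold change -0.50, SE 0.23, adjusted p = 0.234, edgeR).

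The nuclear-encoded subunits of complex IV surround a catalytic core that is encoded by mitochondrial DNA. Of 15 members, 14 were below 0. In 9 (60%) both APAP libraries were below every saline library, where 20.1% of all genes showed this. With library size only these were 2 (13.3%), near the 9.19% of all genes. Cox6a1, which forms part of the dimer contact of the enzyme, was the most abundant per kilobase with saline, at 99.8 and 139 CPM with APAP against 269.6, 165 and 163 CPM with saline (log2 fold change -0.74, SE 0.32, adjusted p = 0.209, edgeR). Cox4i1, the subunit through which ATP regulates the enzyme, overlapped, with 172 and 202 CPM against 362, 238 and 148 CPM, and its log2 fold change of -0.41 (SE 0.39) became 0.01 with library size only and 0.07 in the muscle-containing libraries. Cox8a was at 104 and 112 CPM against 189, 134 and 115 CPM, and Cox6b1 at 113 and 103 CPM against 180.1, 132 and 129 CPM. These values did not overlap, though that of WT3 lay close to the APAP values. Cox7a2 was at 56.3 and 64.5 CPM against 73.0, 55.1 and 62.4 CPM, a log2 fold change of -0.07 (SE 0.21) whose sign turned with library size only (0.33).

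In complex V, 14 of 17 members were below 0. All 5 genes of the catalytic F1 part were lower in both APAP libraries than in every saline library, where 20.1% of all genes were. With library size only, 3 of them were (background 9.19%). The log2 fold changes of the 5 lay between -0.71 and -0.31 with a median of -0.58, and with library size only those of Atp5a1 and Atp5d turned to 0.07 and 0.12. None of the 5 passed the test. Atp5b, the catalytic β subunit and the most abundant member of the complex per kilobase, was at 619.7 and 729.6 CPM with APAP against 1112, 921 and 990.3 CPM with saline (log2 fold change -0.58, SE 0.26, adjusted p = 0.233, edgeR). Of 10 stalk and membrane subunits, 8 were below 0, with a median of -0.34 that turned to 0.08 with library size only. Of the 10, 5 did not overlap as lower (50%, background 20.1%) and 1 as higher (background 24%). With library size only, 2 did not overlap as lower (20%, background 9.19%) and 2 as higher (background 43.3%). The c subunit, whose ring turns in the membrane, is made from 3 genes with the same mature protein. Atp5g3 supplied 84.6% and 84.0% of their summed level per kilobase with APAP and 82.7%, 84.2% and 79.7% with saline, and Atp5g1 14.0% and 15.1% against 17.1%, 15.1% and 19.6%. Atp5g3 itself was at 209 and 208 CPM against 246, 189 and 182 CPM, a log2 fold change of 0.02 (SE 0.24), and its groups overlapped. Atp5g2, the rarest of the 3, had the highest log2 fold change of all members at 1.02 (SE 0.57, adjusted p = 0.327, edgeR), on 2.12 and 1.42 CPM against 0.448, 1.06 and 1.07 CPM.

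Ratios between complexes within a library do not depend on the scaling of the library. The summed level of complex I, per kilobase, was 105% and 107% of that of complex V with APAP against 119%, 120.2% and 117% with saline. That of complex II was 14.3% and 14.6% of complex V with APAP and 17.7%, 19.8% and 17.9% with saline. Both ratios were lower in both APAP libraries than in every saline library, in CPM as well as per kilobase and also among the members with few shared sequences. The ratio of complex III to complex V was 66.8% and 68.7% against 69.8%, 70.7% and 67.5%, and that of complex IV 76.8% and 76.1% against 83.2%, 80.3% and 75.1%. Both of these ratios overlapped. With 2 against 3 libraries the two-sided exact permutation test used here for isoform ratios can give no p below 0.2, so the separation was described and not tested. The order of the genes by level was nearly the same in both groups, with a Spearman correlation of 0.98 between the mean levels per kilobase over 89 genes, a description over genes that share the libraries.

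**Figure D3:**
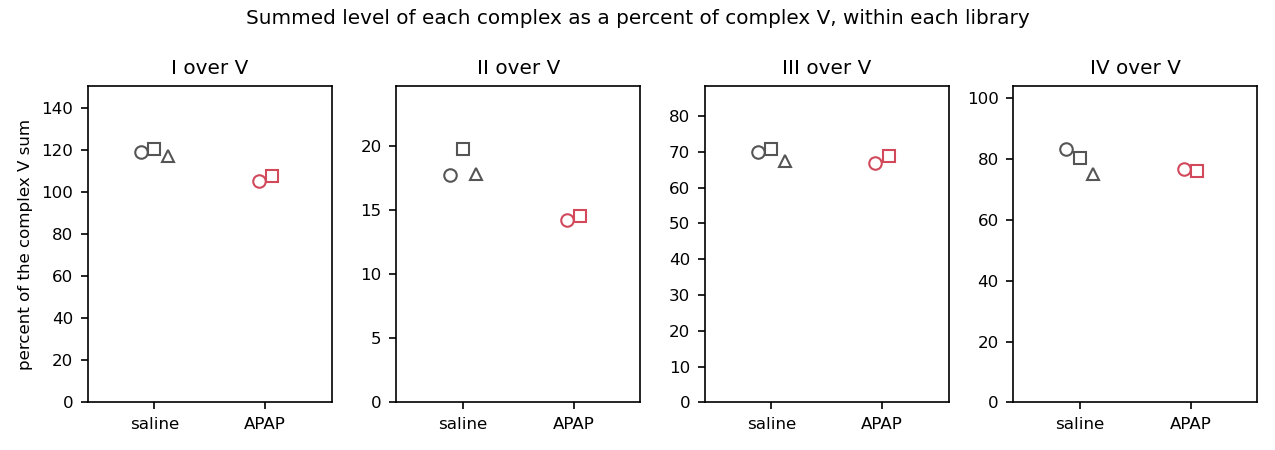
The summed CPM per kilobase of complexes I to IV is plotted as a percent of that of complex V in the same library, with circles, squares and triangles for WT1, WT2 and WT3 and a circle and a square for APAP replicates 1 and 3. The APAP points of complex I (105% and 107%) and complex II (14.3% and 14.6%) lie below all saline points, and those of complexes III and IV do not.

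The muscle isoforms of complex IV followed the muscle markers from library to library. Cox6a2, Cox8b and Cox7a1 are the isoforms of heart and skeletal muscle. Cox6a2 (chromosome 7, 128205435 to 128206387) had 1 and 85 counts with APAP against 0, 135 and 250 counts in WT1, WT2 and WT3. Cox8b had 0 and 20 counts with APAP against 0, 37 and 94 counts with saline, and Cox7a1 14 and 25 counts with APAP against 19, 61 and 89 counts with saline. By counts, the same 3 libraries (APAP replicate 3, WT2 and WT3) were highest for all 3 genes and held the muscle markers, although in CPM Cox7a1 was slightly higher in WT1 (1.703) than in APAP replicate 3 (1.55). The log2 fold changes of -1.70 (SE 1.72) for Cox6a2, -2.25 (SE 1.72) for Cox8b and -1.72 (SE 0.64) for Cox7a1 compare libraries with different amounts of muscle RNA. Their adjusted p-values were 0.594, 0.472 and 0.154 in edgeR. Cox6b2, a testis isoform, had 10 and 6 counts with APAP against 7, 11 and 8 counts with saline. The ratios of the 4 isoforms to their widely expressed counterparts did not pass the exact permutation test (adjusted p = 1 for each), and no ratio was tested for Cox4i2, which had 0 counts.

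**Figure D4:**
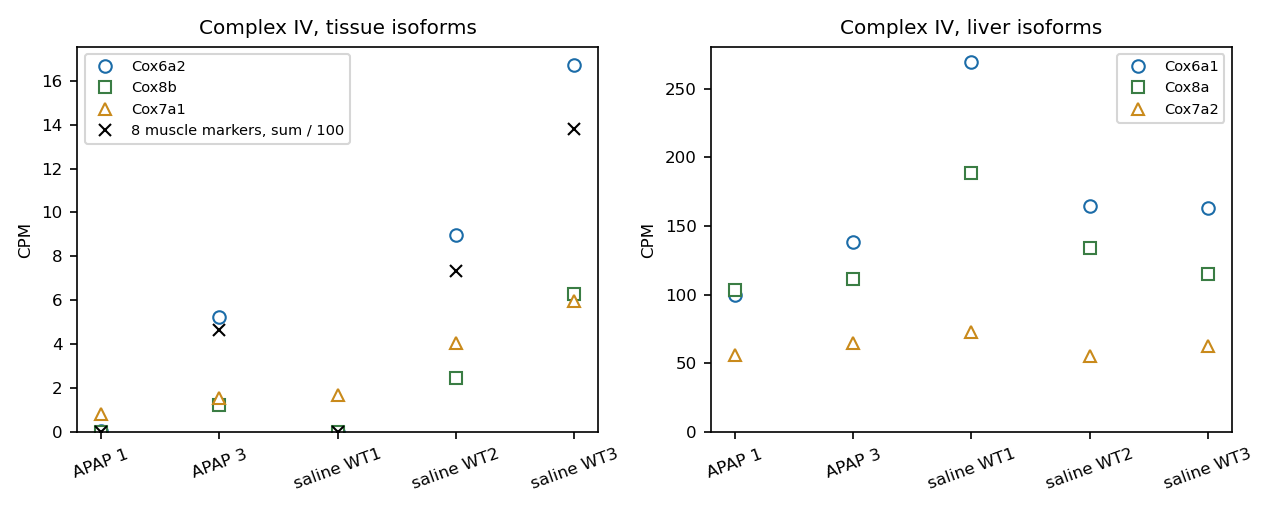
The vertical axes give CPM per library, of 3 muscle isoforms of complex IV beside the summed CPM of 8 muscle markers divided by 100 (left), and of the widely expressed isoforms Cox6a1, Cox8a and Cox7a2 (right). In the left panel Cox6a2 and Cox8b are at or near 0 in APAP replicate 1 and WT1, where the markers are too, and Cox6a2 reaches 16.7 CPM in WT3, and the right panel has its highest values in WT1.

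The comparison was also made within the libraries that hold muscle RNA and within those that do not, in TMM-scaled values. Between APAP replicate 1 and WT1, the 2 libraries with almost no muscle RNA, the median log2 difference of the members was -0.82 and 82 of 89 were lower, a comparison of single libraries without a test, in which the median of all genes was 0.11. Between APAP replicate 3 and WT2 with WT3, which all held muscle RNA, the median log2 fold change was -0.33 and 77 of 89 were below 0, while that of all genes was -0.01. In that fit 0 of the members passed the adjusted threshold of edgeR, while 140 of 14124 genes did. Without the 4 tissue isoforms, the median of the other 85 members was -0.50.

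Some members share sequence with retrocopies, so that reads can be lost or split between copies, and how such reads were counted is not given in the sources used here. In 19 members more than 10% of the 50-base words of the transcript occurred in another gene, and the median log2 fold change of these was -0.36, against -0.56 in the other 70 members. The share was 68.5% in Atp5l, 47.9% in Atp5h, 43.2% in Uqcrb, 37.0% in Ndufb4 and 27.9% in Cox7c, genes named for this share. Atp5l (2.88 and 2.47 CPM against 2.42, 2.72 and 3.21 CPM), Ndufb4 (2.17 and 2.47 CPM against 2.60, 2.19 and 1.603 CPM) and Cox7c (6.99 and 6.49 CPM against 4.30, 8.57 and 5.14 CPM) all overlapped between groups, and their counts are uncertain. Per kilobase, their saline means of 5.12, 2.20 and 11.1 CPM lay below the medians of 150.2, 52.4 and 96.4 CPM of complexes V, I and IV, whereas Atp5h at 174 CPM was above that of complex V and Uqcrb at 208.9 CPM just above that of complex III (208.004). The strand setting of the counting is not given either, and exons of 29 members overlap those of a gene on the other strand. The 60 members without such an overlap had a median of -0.52, with 53 below 0.

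The mitochondrially encoded subunits of the same complexes, which lie outside the name rule, were below 0 in all 13 genes, with a median log2 fold change of -0.93 (12 of 13 below 0 and a median of -0.52 with library size only). Their summed level was 80729 and 95275 CPM with APAP against 209763, 139299 and 122724 CPM with saline, and both APAP sums lay below all saline sums. Of the 13, mt-Nd6, the only one encoded on the light strand of mitochondrial DNA, passed the test at 36.0 and 49.4 CPM against 153, 140.2 and 117 CPM (log2 fold change -1.68, SE 0.26, adjusted p = 0.016, edgeR). It did not pass without APAP replicate 1 (adjusted p = 0.126), without WT2 (0.079) or in the muscle-containing libraries (0.136). Across 9 pooled lists of other respiratory chain genes, including these, 88 genes were tested. In these lists 1 gene was higher (1.14%, against 3.7% of all genes) and 2 were lower (2.27%, against 3.53% of all genes) at an adjusted p under 0.05, with a median of -0.26, which was 0.14 with library size only.

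The electron carriers and assembly factors are given list by list, with no test of the differences between lists. Of 8 assembly factors of complex I outside the name rule, 6 were below 0 with a median of -0.54 (-0.14 with library size only). For 6 factors of complex III the median was -0.23, with 5 below 0, and turned to 0.17 with library size only. Of 24 factors of complex IV, 12 were below 0 and 12 above, with a median of 0.02 (0.43 with library size only), and both factors of ATP synthase were below 0 (Atpaf1 -0.55, SE 0.35, and Atpaf2 -0.31, SE 0.21, the latter 0.08 with library size only). None of these factors passed the test. Cycs, the cytochrome c that carries electrons from complex III to IV, was at 15.2 and 7.54 CPM with APAP against 5.92, 6.18 and 7.15 CPM with saline (log2 fold change 0.83, SE 0.35, adjusted p = 0.199, edgeR). Leaving out APAP replicate 1 gave a log2 fold change of 0.24, leaving out APAP replicate 3 gave 1.23, and the nearest values of the groups were 7.54 and 7.15 CPM. Of 7 electron carriers tested, 0 passed in edgeR, with a median of -0.33 that turned to 0.04 with library size only, and Cyct, the testis form of cytochrome c, had 0 counts.

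Of 11 genes of coenzyme Q synthesis and binding, 1 was higher and 1 lower, where 3.7% and 3.53% of all genes were. Coq7, the hydroxylase of the penultimate step, rose to 34.5 and 24.5 CPM with APAP from 11.8, 11.2 and 9.49 CPM (log2 fold change 1.44, SE 0.23, adjusted p = 0.018, edgeR). It did not pass without APAP replicate 1 (adjusted p = 0.132), without WT2 (0.091) or in the muscle-containing libraries (0.139). Coq10a, which binds coenzyme Q, fell to 7.99 and 11.4 CPM from 27.5, 24.6 and 36.8 CPM (log2 fold change -1.61, SE 0.28, adjusted p = 0.024, edgeR). It did not pass without APAP replicate 1 (adjusted p = 0.153), APAP replicate 3 (0.059), WT1 (0.0503) or WT2 (0.075), or in the muscle-containing libraries (0.171). The other 9 did not pass, and the median of the list was -0.15, or 0.20 with library size only.

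The regulators of respiratory chain transcription showed no common direction. Of 13 tested, 6 were above and 7 below 0 with a median of -0.01 (2 below 0 and a median of 0.40 with library size only), and 0 passed the test. Ppargc1a, the coactivator PGC-1α, was at 16.6 and 13.9 CPM with APAP against 12.6, 23.7 and 59.5 CPM with saline (log2 fold change -1.07, SE 0.60, adjusted p = 0.329, edgeR), where 1 saline library was higher than all others and the groups overlapped. Nrf1 was at 8.23 and 7.85 CPM against 7.08, 7.97 and 5.48 CPM, Gabpa, a subunit of GABP, at 54.1 and 46.9 CPM against 53.9, 64.7 and 55.9 CPM, and Tfam, the packaging factor of mitochondrial DNA, at 49.5 and 45.7 CPM against 56.6, 42.6 and 44.7 CPM. All 3 overlapped between groups.

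Other mitochondrial lists were read beside the members. In a list of 16 genes of the mitochondrial matrix, import, carriers, cristae and channels the median log2 fold change was -0.08, with 10 below 0 (0.33, with 6 below 0, with library size only). In 13 genes of the citric acid cycle outside complex II, 3 of which are also in the previous list, it was -0.39, with 10 below 0 (0.00, with 6 below 0, with library size only). In 7 genes of uncoupling and alternative fuel use it was -0.03 (0.38 with library size only). None of these 3 lists had a gene that passed, and the difference between them and the members was not tested.

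**Figure D5:**
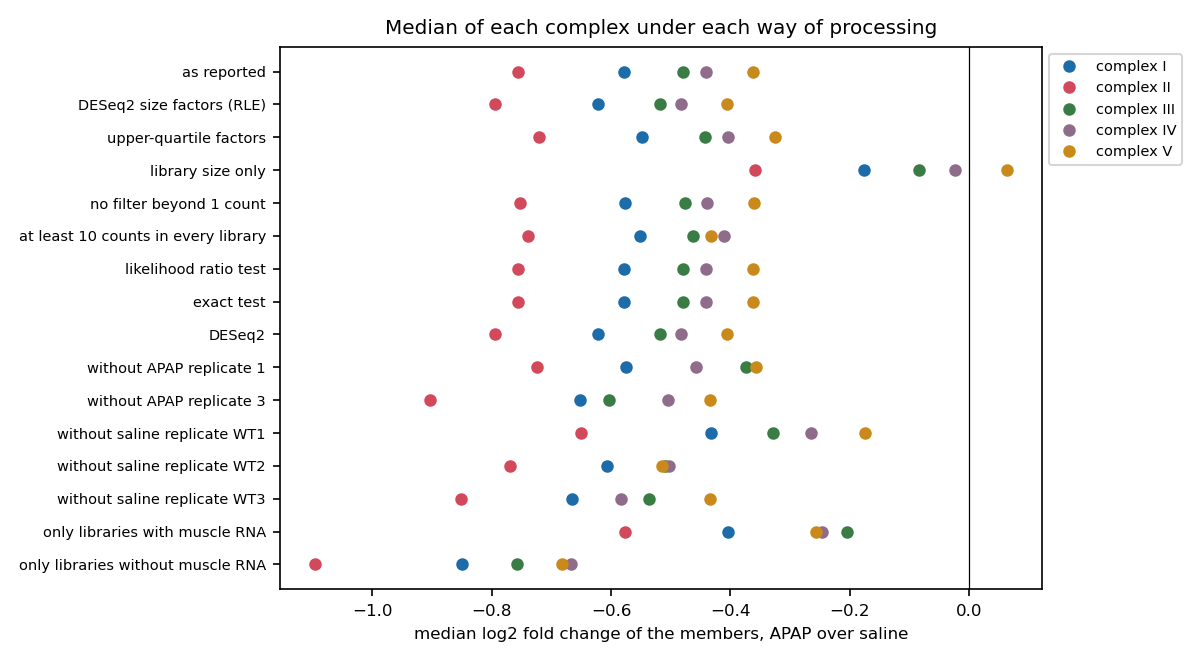
The median log2 fold change of the members of each complex is plotted on the horizontal axis (APAP over saline) under the reported fit and each other setting. All medians lie below 0 except that of complex V with library size only (0.06), and complex II has the lowest median under every setting shown.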

How the data were processed

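Liver RNA of 6 mice in 2 groups was sequenced on an Illumina NovaSeq instrument. The authors deposited raw read counts per gene, obtained with HISAT2 on GRCm38 (mm10), without normalization. The annotation, the strand setting and the handling of reads that match several genes are not given in the sources used here. The 5 columns of FPKM beside the counts were not used. Total counts were 13378445 and 14845081 with APAP and 14259730, 15372166 and 15976339 with saline.

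Low counts were filtered with filterByExpr (10 counts, total of 15), and genes were scaled by TMM and tested in R 4.3.3 with edgeR 4.0.16 (quasi-likelihood test, Benjamini-Hochberg adjustment over all 13734 genes). The design was written for 3 libraries per group and kept with the 2 APAP libraries. The testing steps were also run on simulated counts. These did not hold the differences in sex or muscle RNA between the libraries, and no result here rests on them. Levels per kilobase used exon lengths of GENCODE vM21, where 34344 of the 34745 gene identifiers were found and 61 of 89 members had identical coordinates. Shared sequence was the percent of 50-base words of a gene's coding transcript found in another gene. Isoform ratios were compared by an exact permutation test over libraries, with 0.5 added to each count. Alternatives were RLE, upper-quartile or library size scaling, no filter or at least 10 counts in every library, the exact and the likelihood ratio test of edgeR, DESeq2 1.42.0, a fold change of 1.5 with an unadjusted p, each library left out, and, added after the data were seen, subsets of the members and of the libraries by muscle RNA.

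The members and the gene lists were chosen with earlier results of these data known. Genes were named by rule: called members, the most abundant, highest and lowest member of complexes I, III, IV and V, all of complex II, isoform pairs, and from other lists those called and Cyc1, Cycs, Ppargc1a, Nrf1, Gabpa, Tfam, Atpaf1 and Atpaf2. Others were chosen after their values were seen: Ndufa1, Ndufs1, Ndufs8, Uqcrfs1, Uqcrh, Atp5a1, Atp5d, Atp5g1, Atp5g3, Atp5h, Atp5l, Uqcrb and Ndufb4. Further lists were read as background. The medians were -0.04 for 9 monocyte and macrophage markers, 0.12 for 6 endothelial, -0.28 for 7 stellate, -0.48 for 3 lymphocyte and 2.85 for 2 adipocyte markers, with 1 gene called higher among the monocyte and 1 among the adipocyte markers by edgeR.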

Additional observations from a re-analysis of the deposited data

How the results depend on the processing

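The result that 0 members were called higher held under every setting. The 1 member called lower became 0 with library size only, 3 with the likelihood ratio test, 2 with the exact test, 20 with DESeq2, 32 with an unadjusted p and a fold change of 1.5, 0 in the muscle-containing libraries and 0 to 1 when any 1 library was left out. The median of all members was -0.13 with library size only, -0.33 in the muscle-containing libraries, -0.82 between the 2 libraries without muscle RNA and -0.61 to -0.37 with 1 library left out. With library size only the medians of complexes I, II, III, IV and V were -0.18, -0.36, -0.084, -0.025 and 0.063. In the muscle-containing libraries they were -0.40, -0.58, -0.21, -0.25 and -0.26. Between the 2 libraries without muscle RNA the medians of complexes I to V were -0.85, -1.10, -0.76, -0.67 and -0.68. With 1 library left out, complex I lay between -0.66 and -0.43, complex II between -0.90 and -0.65, complex III between -0.60 and -0.33, complex IV between -0.58 and -0.26 and complex V between -0.51 and -0.17. The highest values of IV (-0.26) and V (-0.17) were those without WT1.

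The log2 ratio of summed levels was -0.52 for all members and -0.12 with library size only, where it was -0.20, -0.39, -0.067, -0.092 and -0.032 for complexes I to V. In the other lists, the 1 gene higher became 0 in the muscle-containing libraries and 0 to 1 with 1 library left out. The 2 lower became 5 with the likelihood ratio test, 4 with the exact test, 13 with DESeq2 (which called 8.41% of all genes lower), 0 in the muscle-containing libraries and 0 to 2 with 1 library left out. Their median was 0.14 with library size only and -0.35 to -0.23 with 1 library left out. The log2 isoform ratio lay between -3.69 and 1.97 for Cox6a2, -4.46 and 0.87 for Cox8b, and -0.22 and 0.26 for Cox6b2 when any 1 library was left out, against -0.75, -1.80 and 0.02 with all.

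With library size only 27 of the 82 members below 0 turned positive. Among the genes named by rule, sign changes were seen with library size only (Atpaf2 0.084, Cox4i1 0.0095, Cox6b2 0.011, Cox7a2 0.33, Gabpa 0.19, Tfam 0.40, Uqcr10 0.16), in the muscle-containing libraries (Cox4i1 0.074, Cox7a2 0.14, Cox7c -0.074, Ndufaf4 -0.13, Tfam 0.070), with upper-quartile factors (Tfam 0.027) and with at least 10 counts in every library (Tfam 0.0065). With 1 library left out Cox7a2 lay between -0.18 and 0.051, Cox7c between -0.012 and 0.51, and Tfam between -0.092 and 0.14. Apart from the scaling and the libraries, whose composition differs as described, the cause was not tested. No paired analysis was possible because no source ties the livers of one group to those of the other, and the columns WT1, WT2 and WT3 could not be matched to the numbered saline samples.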

Other observations

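The spread of log2 fold changes was narrower among the 89 members than among all genes tested. The distance between the quartiles was 0.41 for the members and 0.88 for the 13734 genes. The members were not matched by level to the other genes, and the difference in spread was not tested. Across the members the log2 fold change had a Spearman correlation of 0.01 with exon length and of -0.19 with the saline level in CPM, given as descriptions over genes that share the libraries.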
